A study of Mus musculus with 2 samples.

Results

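Epidermis of newborn mice at postnatal day 3 was profiled for 2 genotypes, Casp-8 F/- K5-Cre, abbreviated F/-, against Casp-8 F/+ K5-Cre, abbreviated F/+, on 1 two-colour array of the 2 in the series. The other array carried dermis. All 21318 spots of that array that belong to a named mouse probe were taken, of 42636 such spots in the series, and they represent 20868 probes. The F/+ RNA was a pool of 3 mice in the Cy3 channel, and the F/- RNA a pool of 3 mice in the Cy5 channel. Both pools were hybridised to the same spots, so every ratio below is F/- over F/+ (Cy5 over Cy3) within a spot. The dermis array had the same genotypes and dyes, with 3 F/+ and 2 F/- mice, and is used here only where it is set beside the epidermis.

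Both groups carried K5-Cre and 1 allele marked F, which by convention is one that Cre can inactivate. The keratin 5 promoter that drives Cre is active in the basal layer of the epidermis and in the keratinocytes that form hair follicles. Keratinocytes of F/- mice can thus lose both copies of the gene, whereas in F/+ mice an intact copy remains. The second allele, - or +, is present in every cell of the animal, so other cells of the epidermal sheet differ by 1 allele as well. Skin layers had been separated by an overnight digestion in the protease dispase (2.4 U/ml, 4 °C).

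Caspase-8 is the protease that starts apoptosis downstream of death receptors such as Fas and the TNF receptor. It also restrains necroptosis, a lytic form of cell death that needs the kinases RIPK1 and RIPK3, by cleaving components of that pathway. In skin, keratinocytes without it are known for setting off inflammation. The question put to this array was how mRNA levels in the epidermal layer differ when keratinocytes lack the enzyme.

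The probes carry the manufacturer's numbers, and none of the 20868 could be paired with a gene from the tables used here. Results are therefore given by probe, the level of Casp8 mRNA was not analysed here, and keratinocyte, fibroblast or immune markers could not be set against the tissue label. The array holds 1 pool per genotype and no dye swap. No spread between mice exists for any value, and no test was run. A preference of a probe for 1 of the dyes and an effect of the genotype cannot be told apart on this array.

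Median background-subtracted probe signals were 456 in F/+ and 276 in F/-, over median local backgrounds of 39.5 and 32.0. A detection limit was set at the 95th percentile of 162 negative control spots. Of the 20868 probes, 19761 exceeded it in both genotypes, and 747 in neither. A further 219 exceeded it only in F/+ and 141 only in F/-. Error could be measured only between spots, which is technical. For the 50 probes printed on 10 spots each, log2 ratios had a pooled SD of 0.079, and the SDs of single probes ranged from 0.036 to 0.18.

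After normalization, most probes differed little between the genotypes in the epidermis. The normalization centres the ratios near 0 at each intensity, so a shift shared by most probes would not show. Without it the median log2 ratio was -0.56. The quartiles of the normalized log2 ratio were -0.12 and 0.10, and its 5th and 95th percentiles were -0.39 and 0.39. The spread of these ratios grew with intensity. The background model adds an offset of 50 to both dyes, which shrinks the ratios of dim probes. How far this shaped the trend was not tested. The interquartile range of the log2 ratio was 0.13 in the dimmest decile of the probes and 0.38 in the brightest decile, against 0.13 and 0.31 on the dermis array. The tails were longer in the epidermis too. Outside the brightest 2% of each array, the 99th percentile was 0.74 for epidermis and 0.39 for dermis, and the 1st percentile was -0.73 for epidermis and -0.53 for dermis. With 1 array per tissue these differences in spread have no test, and the noise between spots was also larger on the epidermis array (0.079 against 0.050).

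**Figure D1:**
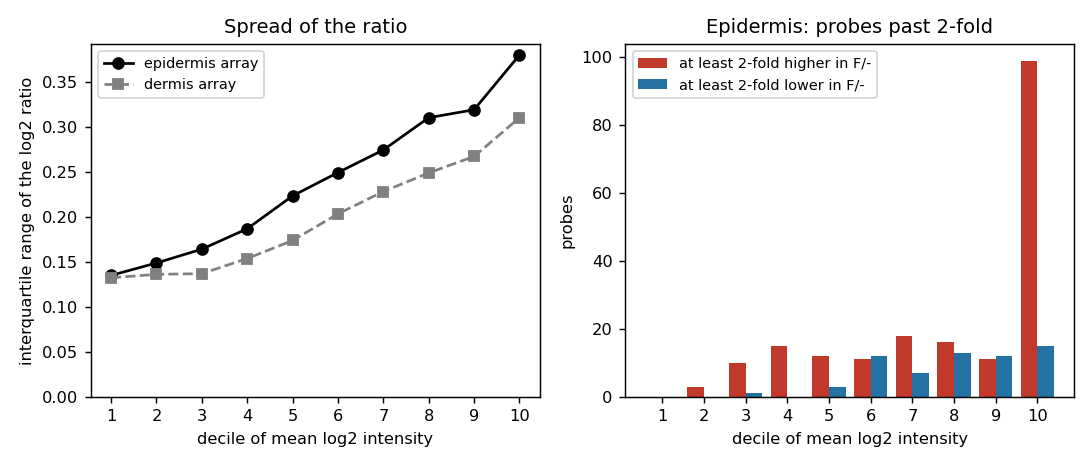
The left panel plots the interquartile range of the log2 ratio (F/- over F/+) in each decile of the probes by mean log2 intensity, for the epidermis array (circles) and the dermis array (squares). The right panel counts epidermal probes at least 2-fold higher (red) or lower (blue) in F/- in the same deciles. The brightest decile holds 99 higher and 15 lower probes, whereas the dimmest holds none of either. The background model's offset of 50 shrinks the ratios of dim probes in both panels.

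At least 2-fold higher in F/- epidermis were 195 probes (0.934% of all) and at least 2-fold lower were 63 (0.302%). Where the calls fall depends on intensity. The offset of 50 shrinks the ratios of dim probes, so fewer of them can reach 2-fold. Deciles 1 to 5, the dimmer ones, held 40 higher and 4 lower probes. Deciles 6 to 9 held 56 and 44. The brightest decile held 99 higher probes, and 86 of those belonged to the brightest 2% of the array, a set of 418 probes with no lower call. Without that set, 109 of 20450 probes were higher (0.533%) and 63 lower (0.308%). The share of higher probes among those past 2-fold was thus 75.6% with the brightest probes and 63.4% without them. In the authors' deposited table it was 58.5% over all probes, and without any normalization it was 7.39%, where the median of all probes lay at -0.56 on the log2 scale. The same split outside the brightest 2% came to 3.44% higher without normalization. With the offset set to 0, 163 probes outside the brightest 2% were at least 2-fold higher and 102 lower.

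The balance between higher and lower probes shifted with the size of the difference. Outside the brightest 2%, 363 probes were at least 1.5-fold higher and 380 at least 1.5-fold lower. At 3-fold the counts were 41 and 7, at 4-fold 22 and 4, and at 8-fold 8 and 2. The order was similar where the ratios of dim probes were not damped. With the background model's offset of 50 set to 0, 504 probes were 1.5-fold higher and 560 lower, and at 4-fold there were 37 and 4. In the authors' deposited table, 383 were 1.5-fold higher and 558 lower, and at 4-fold there were 36 and 3. Without normalization, where the median of all probes was below 0, the counts were 17 and 79 at 3-fold, 10 and 13 at 4-fold, 5 and 2 at 8-fold and 3 and 2 at 16-fold.

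**Figure D2:**
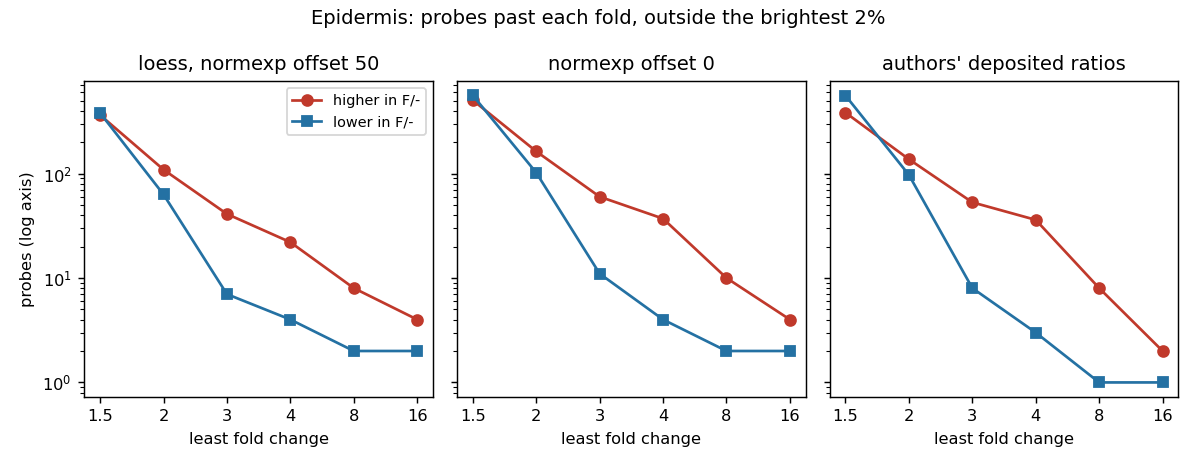
Number of epidermal probes (log axis) at or past each fold change (x axis, 1.5 to 16), higher (red circles) or lower (blue squares) in F/-, outside the brightest 2% of the array. The panels show the ratios used in the text, the same with an offset of 0, and the authors' deposited ratios. Lower probes outnumber higher ones at 1.5-fold, and from 3-fold on the red line lies above the blue one in each panel, as with 41 against 7 probes in the first.

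Most calls outside the brightest 2% were shared between ways of normalizing the signals. Of the 109 higher probes, 91 were past 2-fold under each of 7 treatments of the signals (loess with a wide or a narrow span, one median factor, an offset of 0, plain subtraction, median pixels and the authors' deposited ratios). Of the 63 lower ones, 58 were. The wide span is the setting used here, so it adds nothing to these counts. The authors' deposited table has values for 101 of the 109 and 59 of the 63, of which 100 and 59 were past 2-fold. A probe without a deposited value was not counted as past 2-fold under all 7. At 4-fold, 18 of 22 higher and 3 of 4 lower probes held under all 7. Without normalization 41 of the 109 and each of the 63 were past 2-fold. That setting leaves the median of all probes at -0.56, which favours lower calls over higher ones. It put 1150 of all 20450 probes at least 2-fold lower, so the 2 shares cannot be compared. Some calls came from uneven spots. Among single-spot probes past 2-fold, 11 (7 higher and 4 lower) came from spots whose pixels varied by over 0.5 times their mean. None of these 11 has a value in the authors' deposited table, and 3 of them stayed past 2-fold with median pixel signals.

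The 12 probes with the highest ratios outside the brightest 2%, all from even spots, ran from 5.39-fold to 50.5-fold. Their signals lay between 78.9 and 3892 in F/+ and between 408 and 65502 in F/-, and every one was above the limit of the negative controls in both genotypes. All 12 were past 2-fold in the authors' deposited table as well, and 10 of them were among its 12 highest over the same probes.

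**Figure D3:**
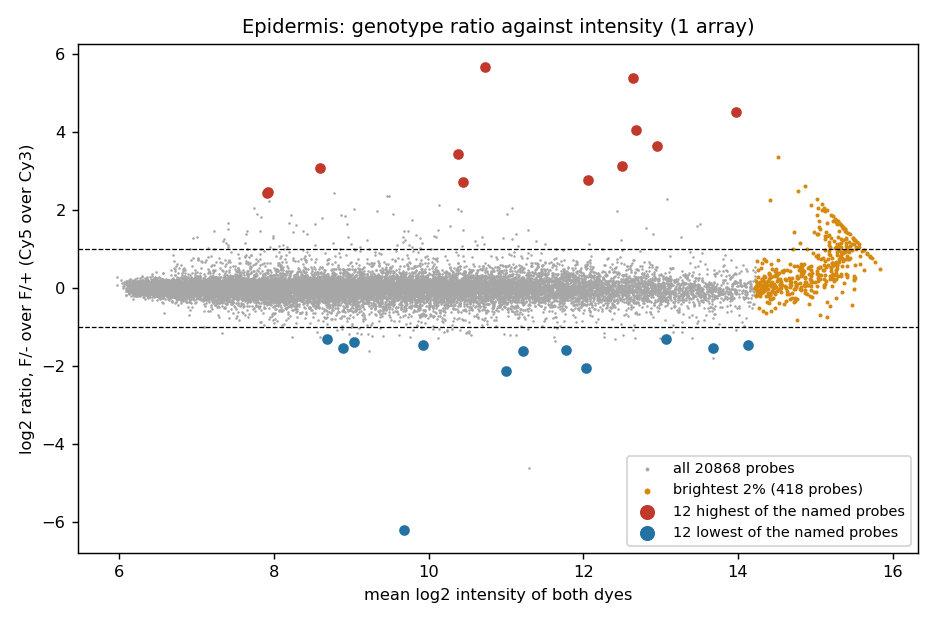
Log2 ratio of F/- over F/+ epidermis (y axis) against the mean log2 intensity of both dyes (x axis) for 20868 probes of 1 array, with dashed lines at 2-fold. Red and blue points are the 12 highest and 12 lowest probes outside the brightest 2%, and orange points are the 418 brightest probes. A_51_P386870 (5.66) and A_51_P145453 (-6.20) stand at the ends, and the orange points fan upwards at the right edge.

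Probe A_51_P386870 had the highest ratio. Its background-subtracted signal was 254 in F/+ and 9424 in F/- epidermis, and 294 and 469 in dermis. Its epidermal log2 ratio was 5.66 (5.58 in the authors' deposited table), and its dermal one was 1.13. Epidermal and dermal F/+ signals were thus of like size, and the F/- epidermis alone stood far above the other 3 pools. Signals of separate arrays were not normalized to each other, which limits such statements to large gaps.

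A_51_P402943 came next, with 1166 in F/+ and 33489 in F/- epidermis and with 2682 and 5238 in dermis. Its log2 ratio of 5.39 (41.8-fold) was larger than the 4.71 (26.2-fold) of the authors' deposited table. A_51_P435588 read 1944 and 21670 in epidermis and 328 and 690 in dermis, for log2 ratios of 4.04 and 1.51. These 3 probes were the only ones of the 12 that also passed 2-fold in the dermis, in the same direction. Of all 20868 probes, 49 were at least 2-fold higher in the dermis. Without normalization the dermal log2 ratios of the 3 were 0.60, 0.95 and 0.98, under 2-fold, where the dermal median of all probes was -0.47.

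A_51_P457747 differed from them in the dermis. Its F/+ signal was 3892 in epidermis and 9213 in dermis, and its F/- signal was 65502 in epidermis and 8635 in dermis. The epidermal F/- spot was at the scanner's upper limit, so its true level may be higher than measured. Its log2 ratio was 4.50 here, 4.44 with a loess span of 0.1, 4.06 without normalization and 2.81 in the authors' deposited table, and none of these is a firm lower bound. The dermal log2 ratio was 0.13. The difference between genotypes was therefore seen in the epidermis, whichever epidermal value is taken, and not at 2-fold in the dermis.

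For A_51_P256827, F/+ and F/- signals were 2704 and 22975 in epidermis against 3732 and 4771 in dermis, with log2 ratios of 3.63 and 0.72. A_51_P122321 went from 469 to 3402 in epidermis, with a log2 ratio of 3.42, and read 598 and 474 in dermis, with 0.22. A_51_P126275 had 2368 and 13852 in epidermis, a log2 ratio of 3.13, and 0.023 in the dermis. All 3 were at least 6.44-fold higher in the epidermis in the authors' deposited table too.

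Some of the probes raised in F/- epidermis already read high in dermis of either genotype. A_51_P128876 had signals of 2010 in F/+ and 8863 in F/- epidermis, and 13529 and 16275 in dermis. A_51_P181297 had 644 and 2780 in epidermis, and 4499 and 3084 in dermis. For these probes the F/+ epidermis was the lowest of the 4 pools, and the log2 ratio was 2.75 and 2.71 in the epidermis against 0.37 and -0.15 in the dermis. Whether dermal cells in the epidermal sheet had a part in this was not tested, as no marker could be named.

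The dimmest of the 12 were A_51_P140710, A_51_P184484 and A_51_P217463, with F/+ epidermal signals of 118, 79.3 and 78.9 over a limit of 50.8. Their F/- signals were 858, 416 and 408. For such dim spots the offset shrinks the ratio. With offset 50 the folds were 8.45, 5.48 and 5.39, and with offset 0 they were 12.3, 9.04 and 8.92. The dermal log2 ratios of these 3 probes were 0.098, 0.33 and -0.15.

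**Figure D4:**
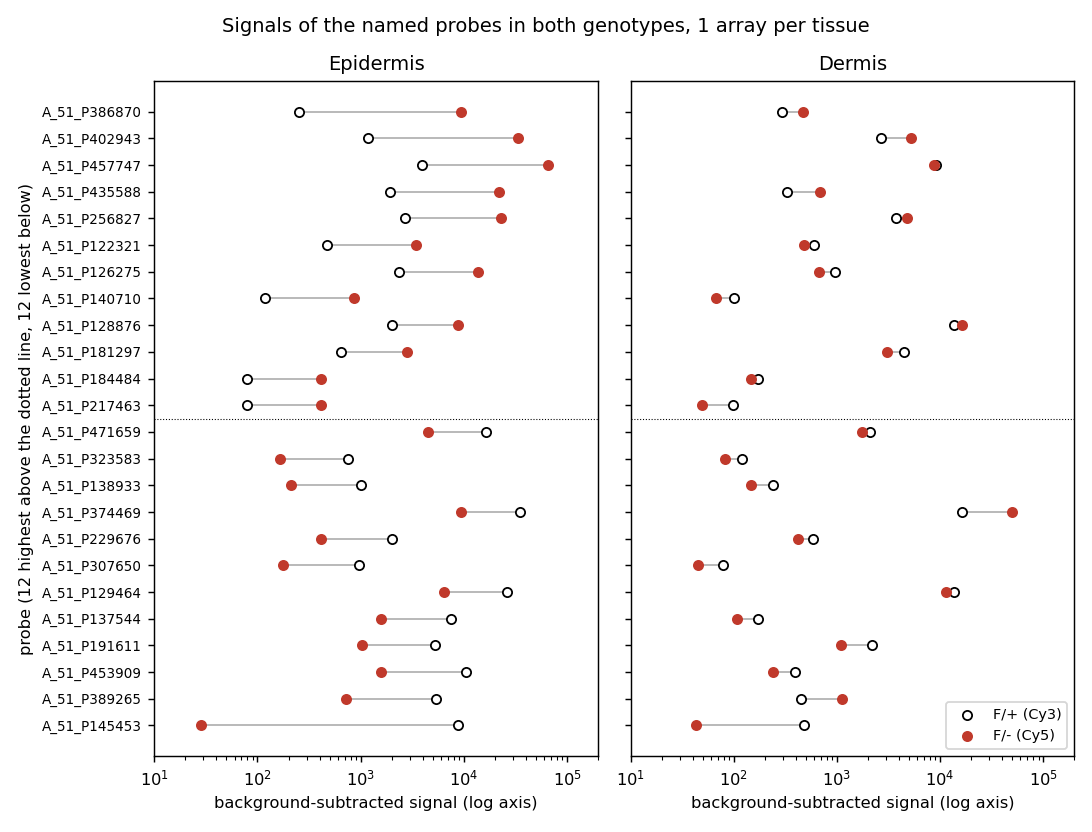
Background-subtracted signals (log axis) of the 12 highest and 12 lowest probes in F/+ (open circles, Cy3) and F/- (red circles, Cy5), for the epidermis array (left) and the dermis array (right), 1 pool per point. Signals are shown before dye normalization. In the epidermis every pair is wide apart, as for A_51_P386870 at 254 and 9424, whereas most dermal pairs lie close together.

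On the lower side, 1 probe stood apart among those with even spots. A_51_P145453 had a signal of 8799 in F/+ and 28.2 in F/- epidermis, and the latter did not exceed the negative control limit of 29.1. It was at least 73.3-fold lower in F/-. Its log2 ratio was -6.20, and it was -7.68 with offset 0 and -7.48 in the authors' deposited table. In the dermis it read 476 in F/+ and 43.0 in F/-, a log2 ratio of -2.02. It was the only probe among the 12 lowest that was also at least 2-fold lower in the dermis, where 17 of all 20868 probes were.

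The other lowest probes with even spots were far smaller in size. From an uneven spot, A_51_P375138 had a log2 ratio of -4.62, which was -2.63 with median pixel signals, and it has no epidermal value in the authors' deposited table. Next among even spots, A_51_P389265 was 4.36-fold lower in the epidermis, with signals of 5355 in F/+ and 726 in F/-, against 452 and 1124 in dermis. A_51_P453909 was 4.17-fold lower, with 10598 and 1590. The other 9 lay between 2.47-fold and 3.08-fold. Among all 63 lower probes the quartiles of the log2 ratio were -1.30 and -1.11, against 1.14 and 1.89 among the 109 higher ones.

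Several lowered probes read much higher in epidermis than in dermis of F/+ mice. A_51_P453909 had an F/+ signal of 10598 in epidermis and 396 in dermis, and A_51_P137544 had 7560 and 171. A_51_P307650 had 954 and 78.8, and A_51_P323583 had 758 and 119. Their dermal log2 ratios were -0.093, 0.016, -0.0065 and 0.13, while their epidermal ones were -2.06, -1.58, -1.53 and -1.30. In F/- epidermis these 4 probes still read 1590, 1570, 176 and 164, above their signals of 239, 108, 45.0 and 83.1 in F/- dermis. A_51_P471659 likewise had 16309 in F/+ and 4482 in F/- epidermis, with 2093 and 1755 in dermis.

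A_51_P129464 and A_51_P374469 were bright in both layers. A_51_P129464 had 26372 and 6479 in epidermis, a log2 ratio of -1.54, and 13566 and 11434 in dermis, a ratio of -0.098. A_51_P374469 had 34579 and 9291 in epidermis, a log2 ratio of -1.47. In dermis its signals were 16138 and 49819 and its ratio was 1.58, in the opposite direction.

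Among the 12 highest and 12 lowest probes, changes in the epidermis were mostly not seen at the same size in the dermis. These probes were picked by their epidermal ratios, which favours smaller ratios in the dermis. Of the 12 highest probes, 8 stayed within 1.5-fold in the dermis, and of the 12 lowest 9 did. Of all 20275 probes outside the brightest 2% of either array, 20107 did. The remaining ones of the lowest group were A_51_P145453, lower in both layers, and A_51_P389265 and A_51_P374469, which were higher in the F/- dermis. No test of the difference between layers was possible.

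**Figure D5:**
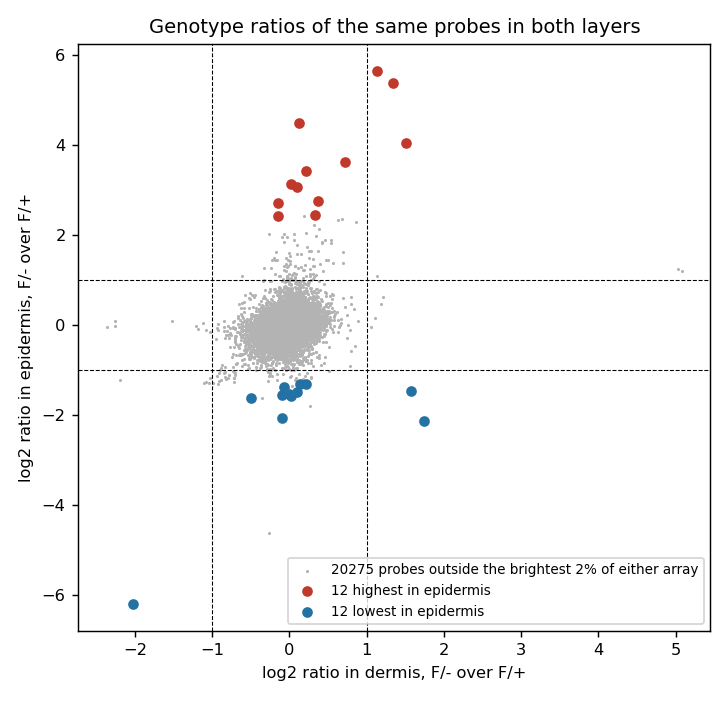
Log2 ratio of F/- over F/+ in the epidermis (y axis) against that in the dermis (x axis), 1 array each, with dashed lines at 2-fold. Grey points are the 20275 probes outside the brightest 2% of either array, and red and blue points are the 12 highest and 12 lowest epidermal probes. The red points lie near 0 in the dermis apart from A_51_P386870, A_51_P402943, A_51_P435588 and A_51_P256827, and a small grey band below -1 on the y axis extends to the left.

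The dermal ratios of raised and lowered probes were also counted at a lower limit. Outside the brightest 2% of either array, 12 of the 109 raised probes were at least 1.5-fold higher in F/- dermis, as were 38 of all 20275 probes (0.19%). Of the 61 lowered probes, 25 were at least 1.5-fold lower in F/- dermis, as were 130 of all (0.64%). In the authors' deposited dermal values 16 of 109 raised probes were higher, as were 55 of all 20042 (0.27%), and 24 of 60 lowered ones were lower, as were 208 of all (1.04%). Without normalization of the dermal signals, 6 of the raised probes were 1.5-fold higher, as were 0.049% of all. Lower were 14 of the raised and 37 of the lowered ones, as were 23.1% of all. Whether the raised and lowered groups differ in this was not tested. At 1.5-fold, 361 of the 20275 probes were higher in F/- epidermis and 38 in F/- dermis. Higher in both were 15, which is 4.16% of the epidermal and 39.5% of the dermal list. Lower were 375 in epidermis and 130 in dermis. Lower in both were 44, which is 11.7% of the epidermal and 33.8% of the dermal list. As both arrays had F/+ in Cy3, dye preference and genotype cannot be told apart in these overlaps.

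Among those 25 probes, 23 formed a narrow band. This band was noticed after the values were seen. A_51_P145453 lay outside it, and A_51_P246345 came from an uneven dermal spot. The 23 had epidermal log2 ratios between -1.30 and -1.03 and dermal ones between -1.10 and -0.70, although their F/+ epidermal signals ran from 524 to 16320. In each of the 23 the epidermal ratio was the lower one, and the difference, epidermis minus dermis, lay between -0.54 and -0.14 on the log2 scale, with a median of -0.32. The probes had been selected at 2-fold in the epidermis but at 1.5-fold in the dermis. That selection favours a lower epidermal ratio and sets upper edges to the band, so no layer difference is read from it. A_51_P185523 had the lowest dermal ratio of the band. It read 2145 in F/+ and 514 in F/- epidermis, and 4138 and 1392 in dermis. A_51_P517120 read 12475 and 3347 in epidermis and 17682 and 7683 in dermis, for log2 ratios of -1.29 and -1.04. Both arrays had F/+ in Cy3, so for this band a preference for Cy3 and a lower level in both layers of F/- skin cannot be told apart.

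The brightest probes need separate reading. Of the 418 brightest, 86 were at least 2-fold higher in F/-, against 4 in the authors' deposited table and 42 with a loess span of 0.1. Their median log2 ratio was 0.35, and in the authors' deposited table it was -0.23. Without normalization it was 0.040, above the -0.56 of all probes. In Cy5, 34 probes were at the scanner's upper limit, 33 of them among the brightest 2%, and 28 of the 34 read at least 2-fold higher. In the authors' deposited table this was the case for 3 of the 34. In Cy3, 0 spots were at the limit, so these 34 were picked by a high F/- signal, which favours a higher ratio. Of all probes, 0.934% were at least 2-fold higher. The highest ratio among the 418 brightest was that of A_51_P484261, whose signal of 8304 in F/+ stood against one at the limit in F/-. Its log2 ratio was 3.35 here, 3.15 with a loess span of 0.1, 2.97 without normalization and 1.70 in the authors' deposited table. A_51_P355015 was not at the limit, with 13304 and 58523. It was 5.58-fold higher here and 2.23-fold in the authors' deposited table, so the sizes differed between the normalizations while both placed these probes past 2-fold.

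The probes printed 10 times show how tightly a ratio was measured within the array. Past 2-fold were 2 of the 50, both higher, where 0.934% of all probes were higher and 0.302% lower. The 2 were picked by their epidermal ratios, which favours smaller ratios in the dermis. A_51_P112223 had a log2 ratio of 1.65 ± 0.075 (SD between 10 spots of 1 array) in the epidermis, with mean signals of 212 in F/+ and 480 in F/-. Its ratio was 1.64 with uneven spots left out. A_51_P475138 had 1.04 ± 0.082, with 733 and 959, where the unnormalized signals give only 0.37. Their dermal ratios were 0.27 ± 0.077 and 0.024 ± 0.065. The gap between layers was larger than the noise between spots for both, but that noise holds no difference between mice. At the threshold itself, single-spot probes differ by less than it. A_51_P512387 was just inside on the higher side, at 1.0005, and A_51_P439085 just outside, at 0.997. On the lower side A_51_P215237 was just inside, at -1.02, and A_51_P486257 just outside, at -0.998.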

How the data were processed

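Spot intensities were deposited by the authors as 1 scanner file per dye and array, with signal and local background in separate columns and no subtraction recorded, per the file headers (fixed circle, program version 5.0). The authors also deposited log10 ratios. Against the background-subtracted signals their slope per log2 unit ran from 0.296 to 0.301 in the 9 dimmer deciles of the epidermis array, where a log10 scale gives 0.301, so direction and scale are settled. Column medians were -0.0025 and 0.0014. How the authors normalized them is not stated in the labels or headers.

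Ratios were computed with limma 3.58.1 in R 4.3.3: normexp on mean pixels with an offset of 50, loess within each array with a span of 0.3 (control spots and spots without an ID at weight 0), and the mean over a probe's spots. Calls are 2-fold sizes without a test. Signals of 65000 or more count as at the upper limit. No probe was filtered. The procedure was also run on simulated data with known fold changes, where the dye ratio changed in a straight line with log intensity. That run was not read by intensity, so it does not bear on the brightest probes. Where F/- did not exceed the negative control limit, the fold uses the higher of the probe's own normalized level and the lowest level above that limit. For A_51_P145453 this was its own level.

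Named probes are the 12 highest and 12 lowest outside the brightest 2% with even spots (pixel SD at most 0.5 times the mean), the 3 highest of the brightest 2%, the probes with 10 spots past 2-fold and those next to the threshold. Other probes (A_51_P375138 and those of the band that was lower in both layers) were chosen after their values were seen. Members, lists and rules were chosen with earlier results of these data known. The gene lists that had been drawn up could not be applied, as 0 probes matched a gene.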

Additional observations from a re-analysis of the deposited data

Results flagged for a closer look

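The genotype ratios of a pair of probes were past 2-fold with opposite signs in the layers; no test of these differences was possible. For A_51_P389265 the epidermal log2 ratio was -2.13 and the dermal one 1.75, which differ by -3.87, and its dermal signals were 452 in F/+ and 1124 in F/-. The authors' deposited table has -2.19 and 1.86 for it. A_51_P374469 had -1.47 and 1.58, a difference of -3.05. It belonged to the brightest 2% of the dermis array, and the authors' deposited table gives it 0.74 there, under 2-fold.

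Among the 521 spots without an ID on the epidermis array, which entered no comparison, 19.6% exceeded the negative control limit in Cy3, a limit that 5% of the negative controls exceed by construction. The log2 ratios of the 102 spots above it in either dye lay between -0.30 and 0.28.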

How the results depend on the processing

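Without normalization the 2-fold counts were 92 higher and 1153 lower, or 41 and 1150 outside the brightest 2%. This setting leaves the dyes' overall imbalance in place. Lower probes numbered 102 with offset 0 and 97 with plain subtraction, both with and without the brightest probes. In the authors' deposited table they numbered 100, and 97 outside the brightest 2%. For the subtraction and the authors' table the cause was not tested, while the change to 102 differs only in the offset. Under the other settings run (one median factor, loess span 0.1, median pixels, the negative control limit, uneven spots or spots at the upper limit left out) each count stayed within 1.5 times its value. All 63 lower probes were among the 102, and 59 among the 100. For the 33 named probes 325 alternative values were computed. Of these, 216 were within 1 SD (0.079, between spots) of the value reported, 109 were not, and 0 reversed a 2-fold call. The 216 include settings that could not change a single even spot, namely the negative control limit and leaving out uneven spots. The tally is thus no measure of stability. In 3 cases a ratio fell under 2-fold, those of A_51_P475138 (0.37 without normalization, 0.93 with one median factor) and A_51_P512387 (0.51 without normalization). Dim signals limit the folds on the lower side, where F/- signals near background are damped by the offset, and the scanner's upper limit cuts off the F/- signals of 34 bright probes. No paired analysis was possible because each tissue has 1 array.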
